A study of Mus musculus with 15 samples.

Results

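Immunoglobulin constant-region genes encode the part of each antibody chain that does not vary with antigen, and the heavy-chain constant gene in use sets the antibody class. The set of 10 mouse genes described here was chosen by name. It comprised Ighm, Ighd, Ighg1, Ighg2b, Ighg2c, Ighg3 and Igha for the heavy chain, Igkc for the kappa light chain, and Iglc1 and Iglc2 for the lambda light chain. Of these, 8 were measured in both tables, and Ighd and Iglc1 were not analysed here. In DMSO 16470 genes were listed and in ibrutinib 16428, with 15869 in both.

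The libraries were made from B-cells taken by mechanical disruption from leukemia-bearing spleens of C57Bl/6 mice and cultured for 24 h. Every mouse carried Eμ-TCL1, a transgene that drives the TCL1 oncogene in B-cells and gives a disease like chronic lymphocytic leukemia. Eμ-TCL1;p53R172H/+ mice, called p53R172H/+ below, also carried 1 Trp53 allele with the R172H mutation. Cells received vehicle (DMSO) or 5 μM ibrutinib, an inhibitor of the B-cell receptor kinase BTK. The groups were 3 Eμ-TCL1 libraries (replicates 2, 3 and 4) and 5 p53R172H/+ libraries (replicates 1 to 5) in DMSO, and 3 Eμ-TCL1 libraries (replicates 1, 3 and 4) and 4 p53R172H/+ libraries (replicates 1, 3, 4 and 5) in ibrutinib. Values are read counts that the authors scaled for library size (CPM) and rounded to 0.1, and the depth of each library is unknown. The scaling was set separately for the 2 treatments, so levels were tested between genotypes within a treatment, and treatments were compared by shares within a library. The labels do not say whether libraries of a group came from separate mice, so p-values measure the spread between these libraries, which may be technical.

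Background on these genes helps in reading the values. A B-cell that has not switched class makes IgM from Ighm, together with IgD from Ighd by alternative splicing. Class-switch recombination joins the same variable region to Ighg, Ighe or Igha genes further along the locus. Each B-cell normally uses a single light-chain class, and kappa predominates in mice. Leukemias of the Eμ-TCL1 model are known as IgM-expressing clones, so Ighm and 1 light-chain class are what a pure clone would show.

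In the GRCm38 build (GENCODE release M21), all measured heavy-chain members lie on the minus strand of chromosome 12. Transcription runs from Ighm (113418558 to 113422730) through Ighd and Ighg3 (113356224 to 113361232), Ighg1 (113325240 to 113330523), Ighg2b (113302965 to 113307933) and Ighg2c (113285325 to 113288932) to Igha (113254830 to 113260236). Igkc is on the plus strand of chromosome 6 (70726435 to 70726966) and Iglc2 on the minus strand of chromosome 16 (19198396 to 19200351). Counting was per gene over exons, so secreted and membrane forms of a heavy chain were not separated.

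The IgG genes are told apart in short reads by stretches such as the hinge, the flexible exon whose cysteines join the 2 heavy chains. The hinge exons are shown because Ighg2b and Ighg2c had the same pattern across libraries below. They are given on the coding strand, with in-frame cysteine codons in capitals, from GENCODE M21 transcripts.
Ighg1 (chr12:113329844-113329882): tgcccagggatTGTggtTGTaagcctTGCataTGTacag
Ighg2b (chr12:113307261-113307326): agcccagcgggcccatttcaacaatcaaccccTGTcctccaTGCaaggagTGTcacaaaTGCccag
Ighg2c (chr12:113288263-113288325): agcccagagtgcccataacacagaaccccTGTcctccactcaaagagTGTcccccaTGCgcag
Ighg3 (chr12:113360529-113360576): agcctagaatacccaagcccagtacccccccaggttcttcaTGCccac
The exons held 4, 4, 3 and 1 cysteine codons and were 39, 66, 63 and 48 bases long. Over the coding sequence of the secreted transcripts, Ighg2b and Ighg2c were 85.6% identical with a longest shared run of 78 bases, the closest pair of the 4. The other 5 pairs were 73.8% to 75.5% identical with shared runs of 28 to 41 bases. Reads that fall within a shared run cannot be placed on 1 gene, so the split between Ighg2b and Ighg2c is less certain than their joint level.

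Of the lambda constant genes, Iglc2 and Iglc3 are closer still, whereas Iglc1 is not. The following 90 bases near the start of the constant exon show where Iglc1 and Iglc3, a further lambda gene, differ from Iglc2, with differing bases in capitals and the coding strand given.
Iglc2 (chr16:19198760-19198849): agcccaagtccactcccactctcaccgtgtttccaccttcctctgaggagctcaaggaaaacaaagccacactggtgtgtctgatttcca
Iglc3 (chr16:19065589-19065678): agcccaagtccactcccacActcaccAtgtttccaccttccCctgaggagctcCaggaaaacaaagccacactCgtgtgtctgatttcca
Iglc1 (chr16:19061979-19062068): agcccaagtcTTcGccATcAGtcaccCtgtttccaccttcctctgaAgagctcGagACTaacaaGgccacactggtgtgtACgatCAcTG
Iglc3 differed from Iglc2 at 5 of these bases and Iglc1 at 20. Over the coding sequence, Iglc2 was 96.2% identical to Iglc3, with a shared run of 79 bases, and 73.4% identical to Iglc1. The value listed for Iglc2 is therefore uncertain as to which of Iglc2 and Iglc3 was transcribed.

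Several libraries held much RNA of other cells, and these are named before the results. In 4 libraries the summed values of 10 T-cell markers exceeded those of 9 B-cell markers: p53R172H/+ replicates 1 and 2 in DMSO, and 1 and 3 in ibrutinib. In Eμ-TCL1 replicate 2 in DMSO, Eμ-TCL1 replicate 1 in ibrutinib and p53R172H/+ replicate 3 in ibrutinib, the summed myeloid markers exceeded the B-cell markers. Across these 6 libraries the B-cell sum was 61.5 to 554.3, against 1185.2 to 5780.1 in the other 9. Every Eμ-TCL1 library had Xist of at least 868.7 and no Ddx3y, whereas p53R172H/+ replicates 1, 2 and 4 in DMSO and 1, 3 and 4 in ibrutinib had Ddx3y of at least 75.1, so genotype and sex are partly confounded. In bulk RNA, fewer B-cells and less transcript per B-cell cannot be told apart.

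Ighm, the constant gene of IgM, was the leading heavy-chain member in each of the 15 libraries. In DMSO it stood at 4502.4, 7031.5 and 9557.9 in Eμ-TCL1 replicates 2, 3 and 4. In p53R172H/+ replicates 1 to 5 it stood at 471.9, 538.8, 4008.4, 3540.9 and 4368.8. The highest p53R172H/+ library lay below the lowest Eμ-TCL1 library, and the libraries with more T-cell than B-cell markers were far below the rest. The female p53R172H/+ libraries, replicates 3 and 5, stood at 4008.4 and 4368.8, little below the lowest Eμ-TCL1 library, the myeloid-rich replicate 2 (4502.4). The part of sex in these values was not tested. Ighm was the only member measured whose genotypes did not overlap in DMSO (1 of 8), where 6.45% of all 16470 genes did not overlap in either direction. The difference did not pass the test across all genes, with a log2 change of -1.95 in p53R172H/+ (standard error 0.94, limma adjusted p = 0.633). With the T-cell-rich libraries set aside it was -0.76 (limma adjusted p = 0.627), so the size depended on those 2 libraries.

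In ibrutinib, Ighm stood at 3455.5, 8344.4 and 10357.9 in Eμ-TCL1 replicates 1, 3 and 4, and at 266, 3079.7, 3509.8 and 3494.2 in p53R172H/+ replicates 1, 3, 4 and 5. The lowest Eμ-TCL1 library fell among the p53R172H/+ libraries, so the groups overlapped narrowly. Female p53R172H/+ replicate 5 (3494.2) was above Eμ-TCL1 replicate 1 (3455.5), and so was p53R172H/+ replicate 4 (3509.8), which had Ddx3y. The log2 change was -1.91 (standard error 1.04, limma adjusted p = 0.502). It was -0.99 without p53R172H/+ replicate 1 and -0.93 with the T-cell-rich libraries set aside (limma adjusted p = 0.71 and 0.913). None of the 8 members was free of overlap in ibrutinib, against 12.7% of all genes. Beside this, the summed B-cell markers had medians of 4433 in Eμ-TCL1 and 3165.3 in p53R172H/+ in DMSO, and of 2420.8 and 851.5 in ibrutinib.

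**Figure D1:**
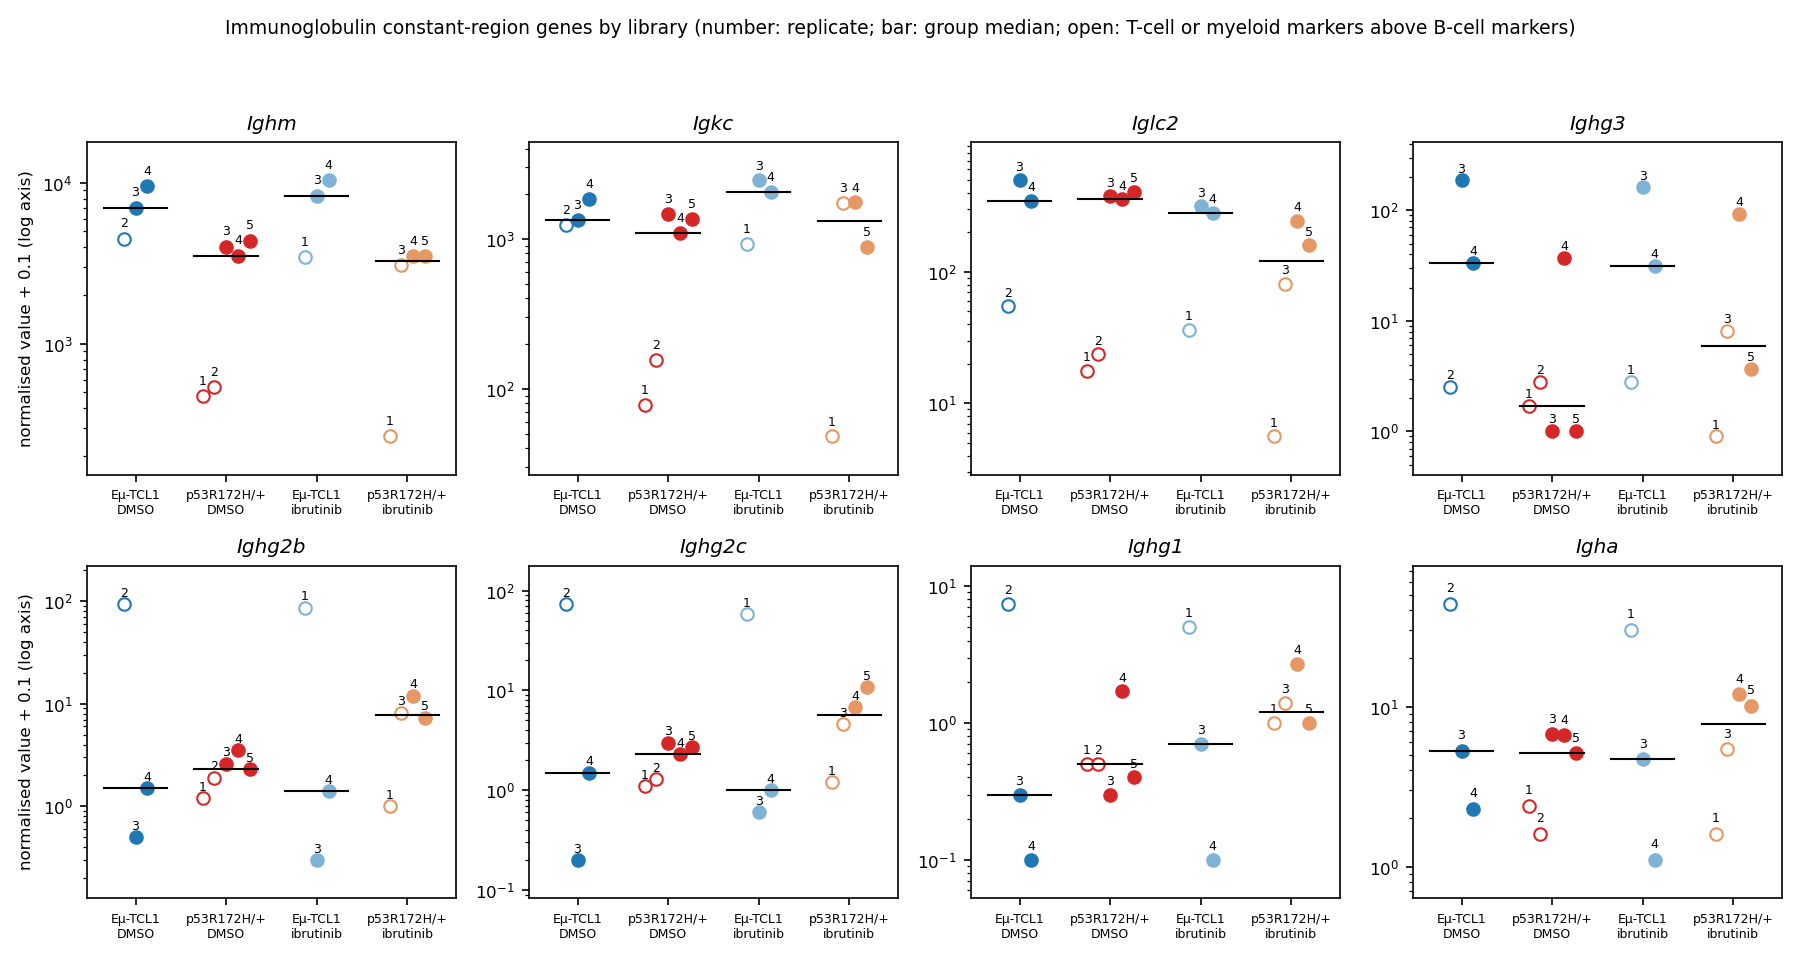
Normalised value of each of the 8 measured constant-region genes in each library, plus 0.1, on a log axis. Points are libraries with their replicate number, bars are group medians, and open points mark the 6 libraries whose T-cell or myeloid markers exceeded the B-cell markers. Ighm and Igkc were the highest in every library, followed by Iglc2 except in Eμ-TCL1 replicate 2 in DMSO and replicate 1 in ibrutinib, where Ighg2b and Ighg2c were above it.

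Igkc, the kappa constant gene, was less different between genotypes than Ighm. In DMSO it stood at 1234.2, 1338.1 and 1853.7 in Eμ-TCL1 replicates 2, 3 and 4, and at 78.1, 156.4, 1472.7, 1090.7 and 1361.2 in p53R172H/+ replicates 1 to 5. In ibrutinib it stood at 924.5, 2452.3 and 2052.5 in Eμ-TCL1 replicates 1, 3 and 4, and at 47.9, 1738.2, 1750.7 and 879.2 in p53R172H/+ replicates 1, 3, 4 and 5. The groups overlapped in both treatments, and the lowest values were those of the p53R172H/+ libraries with the fewest B-cell markers. The log2 change was -1.58 (standard error 1.02, limma adjusted p = 0.645) in DMSO and -1.47 (standard error 1.26, limma adjusted p = 0.622) in ibrutinib.

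Iglc2, the lambda constant gene, varied most of the 3 abundant members. In DMSO it stood at 54.7, 493.7 and 345.9 in Eμ-TCL1 replicates 2, 3 and 4, and at 17.6, 23.5, 376.3, 356.5 and 405.6 in p53R172H/+ replicates 1 to 5. In ibrutinib it stood at 36.2, 314.1 and 281.7 in Eμ-TCL1 replicates 1, 3 and 4, and at 5.5, 80.8, 244.3 and 158.7 in p53R172H/+ replicates 1, 3, 4 and 5. The low values were those of the 6 libraries with other cells, of both genotypes. The log2 change was -0.82 (standard error 1.3, limma adjusted p = 0.834) in DMSO and -1.14 (standard error 1.34, limma adjusted p = 0.717) in ibrutinib.

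Iglc2 tracked the transcripts of 3 B-cell markers more closely than the other abundant members did. The B-cell scale used here was the geometric mean of Cd79a and Cd79b, which carry the signal of the B-cell receptor, and Ms4a1, which encodes CD20. The Iglc2 value ranged from 17.6 to 493.7 in DMSO and from 5.5 to 314.1 in ibrutinib. Over the 15 libraries the ratio of Iglc2 to the B-cell scale ranged only 2.0-fold, from 0.434 to 0.869. The ratio of Ighm to the same scale ranged 11.4-fold, from 4.92 to 56.0, and that of Igkc 13.4-fold, from 1.26 to 16.9. The Ighm ratio was highest in Eμ-TCL1 replicate 2 in DMSO and Eμ-TCL1 replicate 1 in ibrutinib, the libraries richest in myeloid and erythroid RNA. The Igkc ratio was 15.3 and 13.6 in those libraries and 16.9 in p53R172H/+ replicate 3 in ibrutinib. The scaling of a library cancels in these ratios, which are a description and were not tested.

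**Figure D2:**
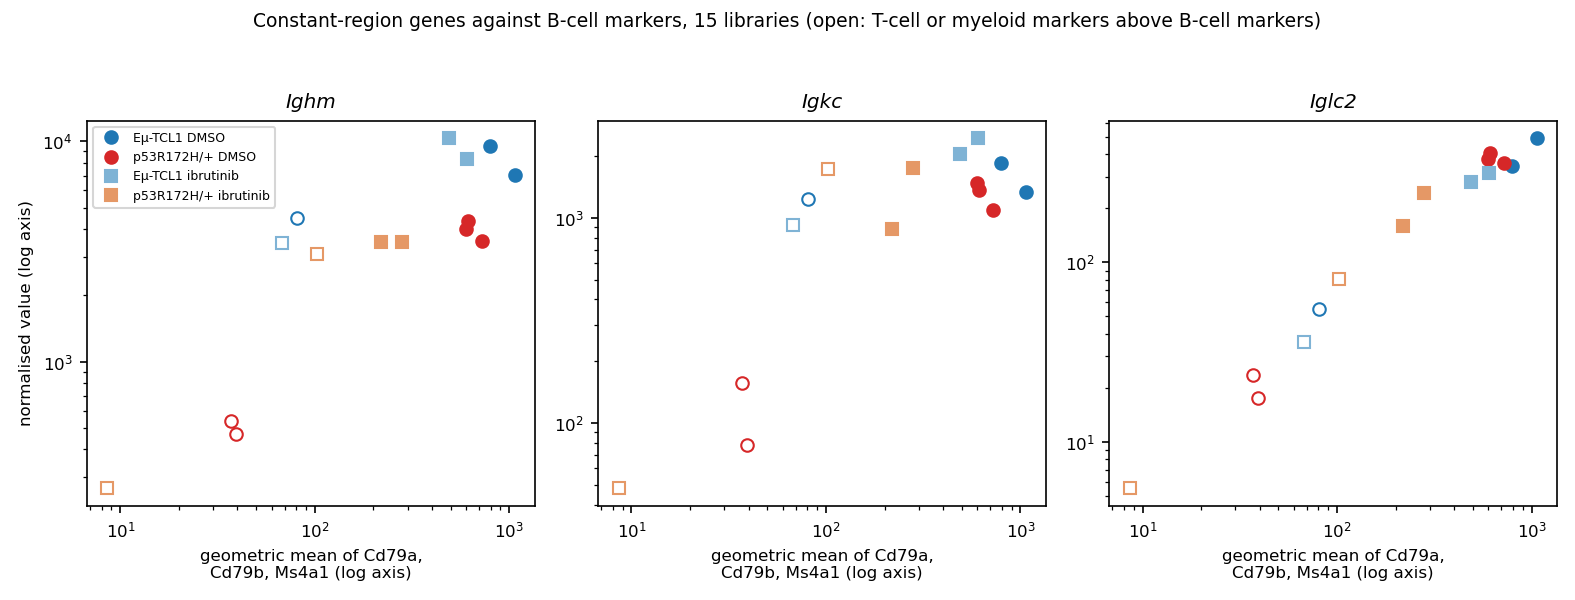
Normalised values of Ighm, Igkc and Iglc2 (vertical, log axis) against the geometric mean of 3 B-cell markers (horizontal, log axis) in the 15 libraries. Circles are DMSO, squares are ibrutinib, and open symbols mark the 6 libraries with more T-cell or myeloid than B-cell markers. Iglc2 followed the markers closely, with a ratio between 0.434 and 0.869, whereas the Ighm and Igkc ratios spread over 11.4-fold and 13.4-fold.

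Divided by exon length, Igkc and Ighm were at alike levels and Iglc2 was below both. Per kilobase of exon, median Ighm and Igkc values were 3728 and 2515 in Eμ-TCL1 and 1877 and 2050 in p53R172H/+ in DMSO. In ibrutinib they were 4424 and 3858 in Eμ-TCL1 and 1743 and 2460 in p53R172H/+. Ighm was above Igkc in 3 of 3 Eμ-TCL1 libraries in DMSO and Igkc above Ighm in 4 of 5 p53R172H/+ libraries, but in ibrutinib the order held in only 2 of 3 and 2 of 4, so these neighbours did not separate there. Iglc2 was below both and above every class-switched gene in all 15 libraries, with group medians of 196 to 583 per kilobase. The class-switched genes had group medians of 0.077 to 13.4 per kilobase, and their order changed from library to library.

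Ighm made up 95.0% to 99.7% of the summed heavy-chain values in every library. This sum held the measured members only, so neither Ighd nor Ighe was in it. In DMSO, Eμ-TCL1 libraries averaged 97.4% ± 2.13 (SD, n = 3), against 99.1% ± 0.60 (SD, n = 5) for p53R172H/+. In ibrutinib the averages were 97.6% ± 2.36 (SD, n = 3) for Eμ-TCL1 and 98.2% ± 1.21 (SD, n = 4) for p53R172H/+. A difference of 1.63 points between genotypes in DMSO had p = 0.0893 in a two-sided exact permutation test, where the smallest possible p was 0.0179. Adjusted over the 12 share tests it was 0.536. The other 3 Ighm tests had adjusted exact permutation p-values of 0.762 to 0.914.

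The remaining share was made by different class-switched genes in different libraries. Ighg3, an IgG subclass that mice use against polysaccharides, stood at 2.4, 186.1 and 33.6 in Eμ-TCL1 replicates 2, 3 and 4 in DMSO. In p53R172H/+ replicates 1 to 5 it stood at 1.6, 2.7, 0.9, 37 and 0.9. In ibrutinib it stood at 2.7, 160.9 and 31.3 in Eμ-TCL1 replicates 1, 3 and 4, and at 0.8, 8, 92.6 and 3.6 in p53R172H/+ replicates 1, 3, 4 and 5. Eμ-TCL1 replicates 3 and 4 and p53R172H/+ replicate 4 were high under both treatments, and the groups overlapped. Ighg3 reached 2.58% of the heavy-chain sum in Eμ-TCL1 replicate 3 in DMSO and 2.55% in p53R172H/+ replicate 4 in ibrutinib. It had the lowest fitted log2 change among the members in DMSO, at -2.74 (standard error 1.40, limma adjusted p = 0.638). Single libraries moved this value, to -1.37 without Eμ-TCL1 replicate 3, where it was no longer the lowest, and to -4.26 without Eμ-TCL1 replicate 2.

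Ighg2b and Ighg2c, IgG subclasses that bind activating Fc receptors, were high in another pair of libraries. Ighg2b stood at 93.7, 0.4 and 1.4 in Eμ-TCL1 replicates 2, 3 and 4 in DMSO and at 85.9, 0.2 and 1.3 in Eμ-TCL1 replicates 1, 3 and 4 in ibrutinib. In p53R172H/+ it stood at 1.1, 1.8, 2.5, 3.4 and 2.2 in DMSO and at 0.9, 8.1, 11.9 and 7.2 in ibrutinib. Thus 1 Eμ-TCL1 library in each treatment was above every p53R172H/+ library, and the other 2 stood at 1.4 or less. Ighg2c had the same pattern, at 73.4 and 57.7 in the high Eμ-TCL1 libraries, 0.1 to 1.4 in the other 4 Eμ-TCL1 libraries, and 1 to 10.7 in p53R172H/+. The deviations of the 2 high libraries from their group means correlated at r = 0.899 over 10119 genes. Whether both came from 1 mouse was not tested.

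Igha, the constant gene of IgA, and Ighg1 were highest in the same Eμ-TCL1 libraries. Igha stood at 43.7, 5.2 and 2.2 in Eμ-TCL1 replicates 2, 3 and 4 and at 2.3, 1.5, 6.6, 6.5 and 5 in p53R172H/+ replicates 1 to 5 in DMSO. In ibrutinib it stood at 30.1, 4.6 and 1 in Eμ-TCL1 replicates 1, 3 and 4, and at 1.5, 5.3, 11.8 and 10 in p53R172H/+. Ighg1 was 7.3 and 4.9 in the 2 high Eμ-TCL1 libraries and at most 2.6 elsewhere, and it was listed at 0 in both libraries of Eμ-TCL1 replicate 4. The mean Igha share was 0.297% to 0.340% of the heavy-chain sum in Eμ-TCL1 and 0.243% to 0.333% in p53R172H/+. The Eμ-TCL1 means rested on the high libraries, at 0.925% in DMSO and 0.828% in ibrutinib. Median shares in DMSO and ibrutinib were 0.072% and 0.054% in Eμ-TCL1, and 0.181% and 0.304% in p53R172H/+. The 4 Igha tests, which compared means, had adjusted exact permutation p = 0.914.

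The Eμ-TCL1 libraries with high Ighg2b, Ighg2c and Igha also differed in other cells. The summed myeloid markers (7 of 8 measured) were 28389.6 in Eμ-TCL1 replicate 2 in DMSO and 19615.1 in Eμ-TCL1 replicate 1 in ibrutinib, against at most 1141.5 in the other libraries. Erythroid markers (6 of 8 measured) summed to 17255 and 14977.4 there, against at most 256.2 elsewhere, and neither Lyz2 nor Hbb-bs was at 0 in any library. The summed B-cell markers were 554.3 and 441.2 there, against 2420.8 to 5780.1 in the other Eμ-TCL1 libraries. The summed plasma cell markers, not scaled to B-cell content, were 450.2 and 330.9 there, the lowest of the Eμ-TCL1 libraries. The others had 690.6 to 988.5. The plasma cell markers did not all go this way. Mzb1 (39 and 40.6 there, against 365.5 to 425.5) and Prdm1 were lowest there. Igj, Sdc1 and Xbp1 lay between the values of the other Eμ-TCL1 libraries in both treatments. The part of these cells in the Ighg2b, Ighg2c and Igha values was not tested.

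**Figure D3:**
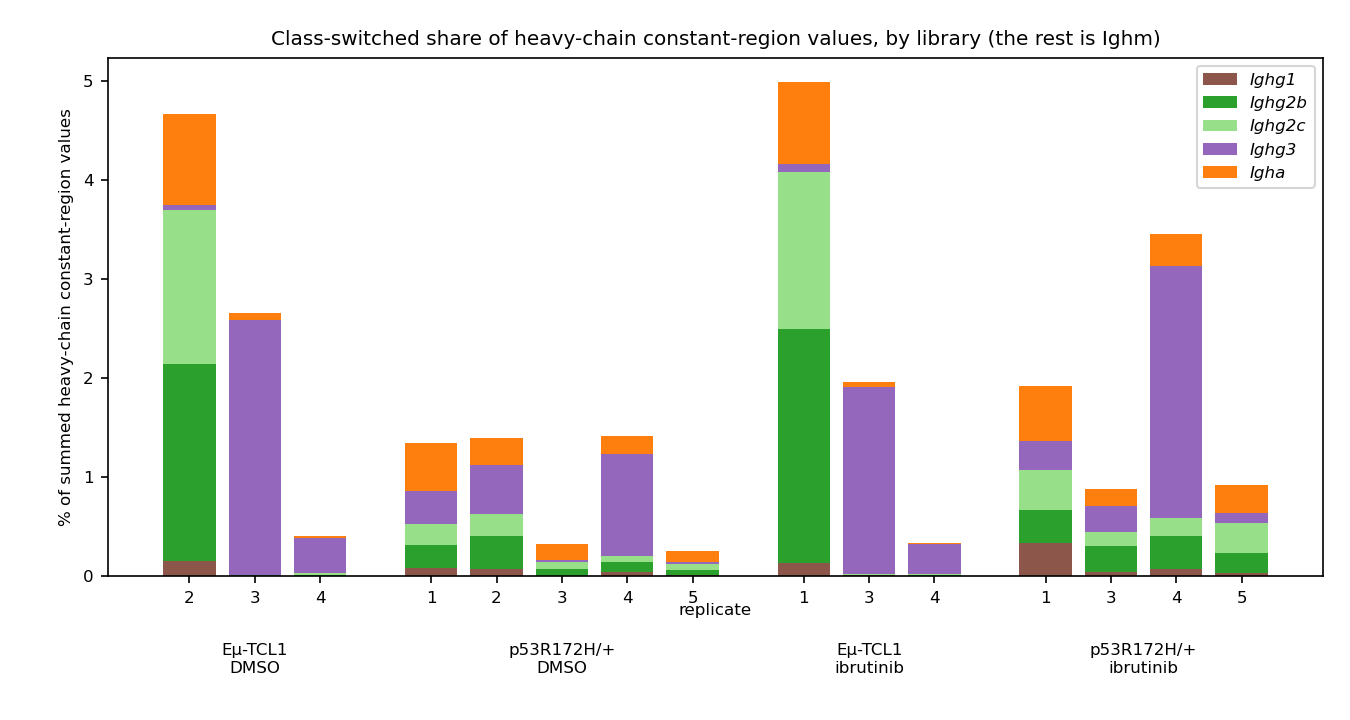
Share of the summed heavy-chain constant-region values taken by each class-switched gene, in percent, by library, with Ighm as the remainder. Bars are single libraries in their 4 groups. Ighg2b and Ighg2c led in Eμ-TCL1 replicate 2 in DMSO and replicate 1 in ibrutinib, and Ighg3 led in Eμ-TCL1 replicates 3 and 4 and in p53R172H/+ replicate 4.

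Between genotypes, none of the 8 members passed the test in DMSO, where limma called 0.0121% of the 16470 genes (2). None passed in ibrutinib or for the interaction of genotype and treatment, where 0% of 16428 and 0% of 15869 genes were called. No member had an unadjusted p under 0.05 in these fits, against 1346, 1973 and 83 genes in all. In DMSO the fitted change was below 0 for 8 of 8 members, with a median of -1.07 beside 0.04 over all genes, and in ibrutinib for 5 of 8, with a median of -0.59 beside -0.05. The B-cell markers lay below 0 as well, 9 of 9 in each treatment, with medians of -0.87 and -1.53. The 10 T-cell markers had medians of 1.36 and 2.14. Their sum was 137.5 to 457.8 in Eμ-TCL1 and 193.8 to 3189.7 in p53R172H/+ in DMSO, and 110.5 to 352.5 and 489.2 to 1725.6 in ibrutinib, with Cd3e above 0 in every library. The part of cell content in the members' values was not tested.

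With the 6 libraries rich in other cells set aside, a choice made after seeing the data, Ighg2b and Ighg2c rose in both treatments and changed sign in DMSO. In DMSO their log2 changes went from -1.14 and -1.01 to 1.0 and 1.13, and in ibrutinib from 0.07 and 0.04 to 2.63 and 2.49 (limma adjusted p = 0.230 to 0.253, none called). Only 2 Eμ-TCL1 against 3 p53R172H/+ libraries were left in DMSO, and 2 against 2 in ibrutinib. In the Eμ-TCL1 libraries left, Ighg2b was 0.2 to 1.4 and Ighg2c 0.1 to 1.4, near the rounding step of 0.1. Igha went from -0.97 to 0.65 in DMSO and from -0.04 to 1.83 in ibrutinib. Ighm remained below 0, at -1.05 and -1.41. In DMSO the direction of the class-switched members other than Ighg3 rested on Eμ-TCL1 replicate 2, since without it the changes were 0.47 for Ighg1, 0.76 for Ighg2b, 0.83 for Ighg2c and 0.14 for Igha. In ibrutinib, leaving out Eμ-TCL1 replicate 1 took Ighg2b to 1.98.

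**Figure D4:**
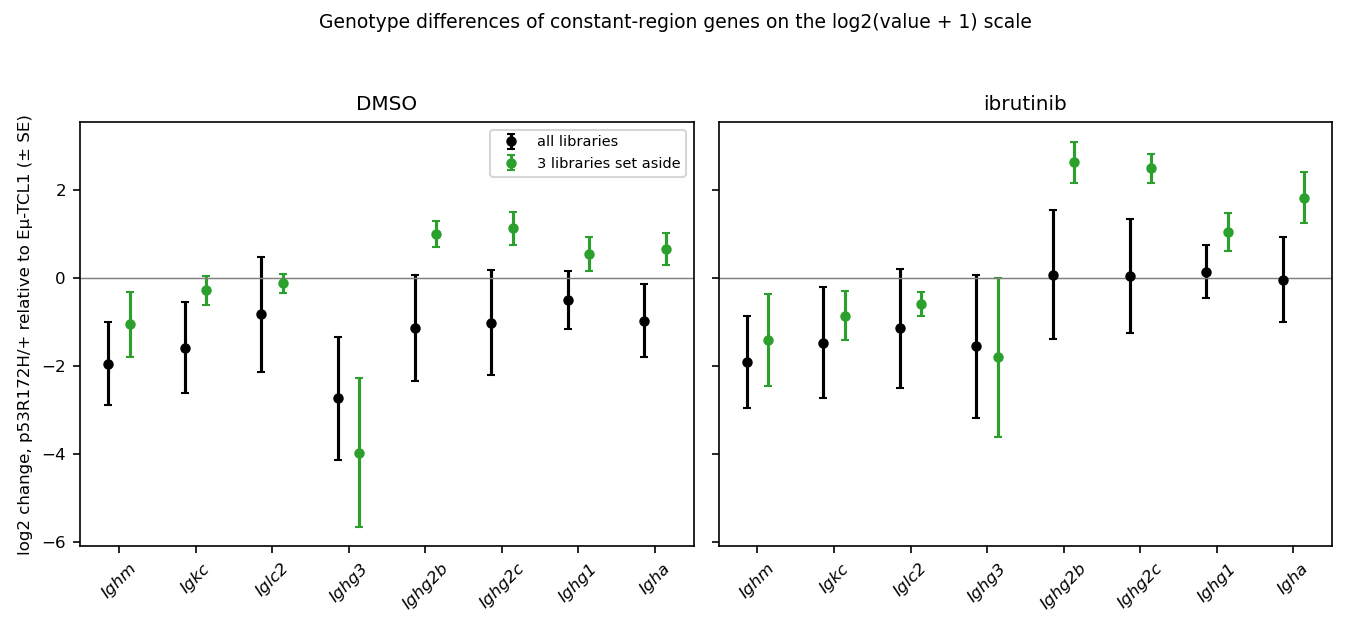
Log2 change of each measured member in p53R172H/+ relative to Eμ-TCL1 on the log2(value + 1) scale, with its standard error, in DMSO and in ibrutinib. Black points are from all libraries and green points from the fit without the 3 libraries of each treatment rich in T-cell or myeloid markers. Ighg2b and Ighg2c moved from -1.14 and -1.01 to 1.0 and 1.13 in DMSO.

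Mean kappa shares were higher in ibrutinib than in DMSO in both genotypes, although no test of them passed after adjustment. The light-chain sum held Igkc and Iglc2 only. As a share of it, Igkc averaged 84.4% ± 11.4 (SD, n = 3) for Eμ-TCL1 libraries in DMSO and 90.9% ± 4.60 (SD, n = 3) in ibrutinib. For p53R172H/+ the averages were 80.1% ± 4.50 (SD, n = 5) and 89.4% ± 4.57 (SD, n = 4). In p53R172H/+ the share was 9.31 points higher in ibrutinib, with p = 0.0238 in a two-sided exact permutation test and 0.286 after adjustment over the 12 tests. With 5 libraries against 4 the exact p cannot go below 0.00794, so no single test could pass this adjustment by itself. In Eμ-TCL1 the share was 6.58 points higher, with exact p = 0.4 where 3 libraries against 3 cannot go below 0.1. Without Eμ-TCL1 replicate 3 in DMSO it was 0.921 points higher, and without replicate 2 in DMSO 12.3.

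Read the other way, Iglc2 took 13.1% to 24.6% of the light-chain sum in p53R172H/+ in DMSO and 4.44% to 15.3% in ibrutinib. The lowest DMSO library, replicate 2, lay below the highest ibrutinib library, replicate 5. In all 6 pairs of libraries that share a number within a genotype, the Iglc2 share was lower in ibrutinib. It was 27.0% and 11.4% in Eμ-TCL1 replicate 3, and 15.7% and 12.1% in replicate 4. In p53R172H/+ it was 18.4% and 10.3% in replicate 1, 20.4% and 4.44% in replicate 3, 24.6% and 12.2% in replicate 4, and 23.0% and 15.3% in replicate 5. The libraries numbered 3 in p53R172H/+ differed in sex by Xist and Ddx3y, so a number does not always join 1 mouse. The Eμ-TCL1 libraries without a partner of the same number had the lowest shares of their groups, at 4.24% in DMSO and 3.77% in ibrutinib.

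**Figure D5:**
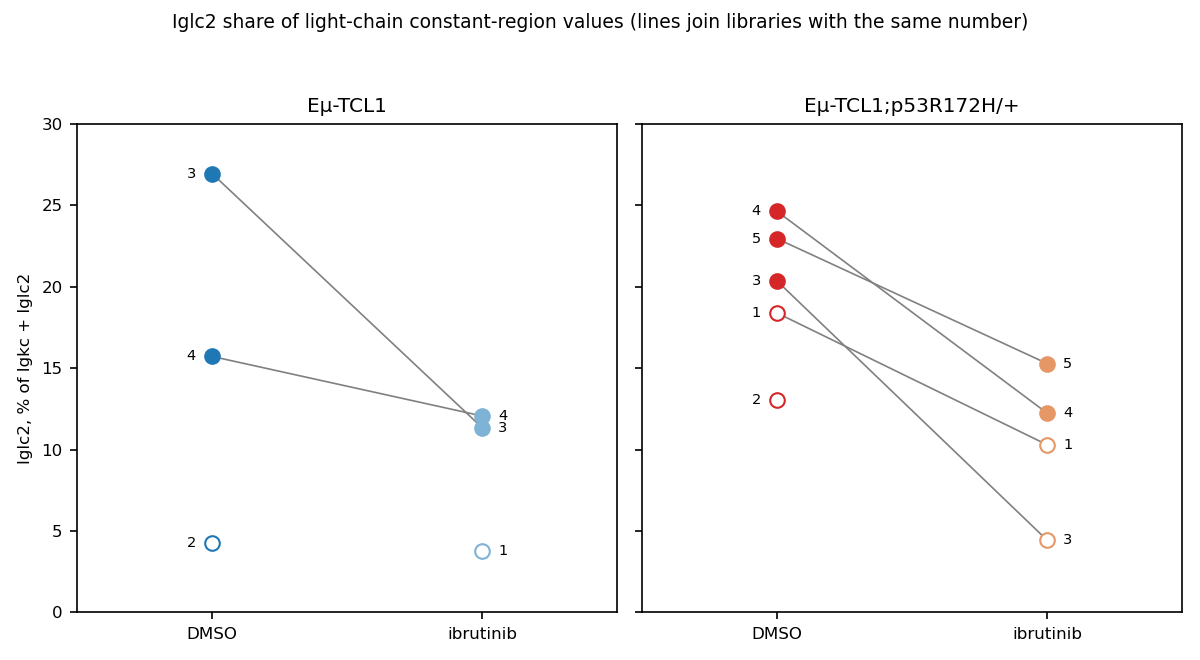
Iglc2 as a percentage of Igkc plus Iglc2 in each library, in DMSO and ibrutinib, for both genotypes. Lines join libraries with the same replicate number, and open points mark the 6 libraries with more T-cell or myeloid than B-cell markers. All 6 lines fall, from 15.7% to 27.0% in DMSO to 4.44% to 15.3% in ibrutinib.

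The gene most alike each member in its pattern was sought by Pearson's r of log2 values, centred within each treatment, over 15 libraries and 10119 genes. The libraries share scaling and cell content, so these are descriptions. For Ighm they were Arfgap3, a Golgi trafficking regulator (r = 0.989), Syk, the kinase next to the B-cell receptor (0.988), and Rnase6 (0.984). For Igkc they were Atp6v0a1, a proton pump subunit (0.964), Ell2, an elongation factor known for immunoglobulin secretion (0.957), and Atf6, a sensor of endoplasmic reticulum stress (0.955). For Iglc2 they were Cd79a (0.994), Pkig (0.992) and Tmc3 (0.989).
For Ighg3 they were Trim6 (0.946), Robo1 (0.934) and Ighj2, a heavy-chain joining segment (0.930). Ighg2b and Ighg2c shared the receptor kinase gene Kit (0.967 and 0.968) and Zfp608 (0.960 and 0.965), followed by Mmp25 (0.959) for Ighg2b and Tbc1d8 (0.958) for Ighg2c. For Igha they were Hspa1a (0.950), the myeloid factor Cebpa (0.944) and Hspa1b (0.935), and for Ighg1 Ankrd28 (0.940), Fos (0.936) and Lpl (0.934).

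The other genes of the antibody pathway were counted in lists fixed by name, and none of their genes passed the test across all genes in either treatment except among the variable genes. As background for the list counts, 1346 of all 16470 genes in DMSO and 1973 of all 16428 in ibrutinib had an unadjusted p under 0.05. Of the genes that sit with the receptor or bind immunoglobulin, 3 of 9 were lower in p53R172H/+ at an unadjusted p under 0.05 in DMSO and the same number in ibrutinib. Among them, the IgE receptor gene Fcer2a had log2 changes of -2.69 and -1.56 (limma adjusted p = 0.319 and 0.223). Cd79a had -0.78 and -1.40 and Cd79b -1.06 and -1.53, neither with an unadjusted p under 0.05.

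Of 18 secretion and plasma cell genes measured in DMSO, 17 had a fitted change below 0 and 5 an unadjusted p under 0.05. In ibrutinib the counts were 17 and 3 of 17. The median changes of the list were -0.75 and -1.03, beside 0.04 and -0.05 over all genes. Igj, the joining chain of secreted IgM and IgA, stood at 203.2, 70.4 and 287.6 in Eμ-TCL1 replicates 2, 3 and 4 and at 11.8, 16.4, 6.7, 61.5 and 3.5 in p53R172H/+ replicates 1 to 5 in DMSO. Every p53R172H/+ library was below every Eμ-TCL1 library, with a log2 change of -3.56 (standard error 0.83, limma adjusted p = 0.338). In ibrutinib Igj stood at 126.3, 60.6 and 183.3 in Eμ-TCL1 replicates 1, 3 and 4 and at 7.3, 184.1, 71.8 and 12.4 in p53R172H/+ replicates 1, 3, 4 and 5. The genotypes overlapped there, with a log2 change of -1.69 (standard error 1.08, limma adjusted p = 0.551). Xbp1, the factor that expands the secretory machinery, had changes of -1.42 and -1.15 (limma adjusted p = 0.395 and 0.319), Sdc1, a plasma cell surface proteoglycan, -2.03 and -1.28, and Prdm1, the plasma cell repressor of B-cell identity, -0.22 and -0.47.

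Of 21 class-switch recombination genes, 2 had an unadjusted p under 0.05 in DMSO, 1 in each direction, and 1 did in ibrutinib, where it was higher. Ung, a uracil glycosylase, had log2 changes of 0.16 and 0.31 (limma adjusted p = 0.934 and 0.566).

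Of 16 transcription factors of the immunoglobulin loci, 1 was lower at an unadjusted p under 0.05 in DMSO, and 2 lower and 1 higher in ibrutinib. Pax5, which holds B-cell identity, had log2 changes of -0.87 and -1.67, and the coactivator Pou2af1 -0.77 and -1.57, with limma adjusted p-values of 0.823 and 0.826 in DMSO and 0.563 and 0.584 in ibrutinib. The 9 joining segments measured all had fitted changes below 0 in both treatments, with medians of -1.43 and -1.78, and 1 and 0 had an unadjusted p under 0.05. Of 58 heavy-chain and 65 kappa variable genes in DMSO, 1 each passed the test. These were Ighv1-55 and Igkv12-89, which were the only genes called in that table. Ighv1-55 stood at 198.6, 817.4 and 1093.9 in Eμ-TCL1 replicates 2, 3 and 4 and at 0.3 to 1.9 in p53R172H/+. It was also 162.7 to 1146.3 in the 3 Eμ-TCL1 libraries in ibrutinib. Igkv12-89 stood at 264.6, 916.7 and 1179.5 in Eμ-TCL1 in DMSO and at 220.6, 1478.4 and 1413.1 in ibrutinib. In p53R172H/+ it was 2 to 11.2 over both treatments. The 3 Eμ-TCL1 libraries of a treatment thus shared a heavy-chain and a kappa variable gene, and whether they are separate clones was not tested.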

How the data were processed

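RNA of 15 libraries was sequenced by the authors. According to the submitters' processing notes, TopHat2 2.0.12, SAMtools 0.1.19, HTSeq and edgeR were used, with genes of GENCODE M2 (GRCm38). For the deposited signal values, the authors filtered read counts per gene, scaled them for effective library size (CPM) with separate factors in each treatment, and rounded to 0.1. A read is worth less than that step, so depth is unknown and counting error could not be computed. The strand setting was not given in the sources used here.

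Genotypes were compared with limma 3.58.1 in R 4.3.3 (lmFit, eBayes with a trend) on log2(value + 1), which understates changes of low genes. The p-values of all listed genes were adjusted by the Benjamini-Hochberg method, and an adjusted p under 0.05 counted as called. The fit was tested on simulated data. Shares within a library were compared by two-sided exact permutation of group means (12 tests). The genes named were all members, list genes past the threshold or defining a list, and the 3 genes most alike each member among those with a mean of at least 5. Members and lists were chosen with earlier results of these data known, and genes outside the naming rule (Fcer2a, Xist, Ddx3y and Iglc3) after their values were seen. Sequences and exon lengths came from GENCODE M21 (GRCm38).

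Alternatives for the fits were pseudocounts of 0.1 and 5, only genes with a mean of 5 or more, quantile normalization, weights for sample quality, a replicate block, scaling to the B-cell markers Cd79a, Cd79b and Ms4a1, and each library left out. Shares were also taken per exon length, as medians and with Ighe. A planned B-cell marker and a class-switch gene were left out of the lists, sums and scale after the results were seen, and are not reported here. Setting aside libraries by marker sums was chosen after seeing the data.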

Additional observations from a re-analysis of the deposited data

Results flagged for a closer look

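In groups of 4 or 5 libraries, 24 sets of member values and shares were examined for a library far from the others, measured as its gap to the nearest library over the range of the group, and 4 were found. Chance gives about 1 in 20. Ighg3 in p53R172H/+ replicate 4 was the highest of its group under both treatments, at 37 in DMSO (gap 0.950 of the range) and 92.6 in ibrutinib (0.922). Ighg1 was highest in the same DMSO library, at 1.6 (0.857). Ighm was lowest in p53R172H/+ replicate 1 in ibrutinib, at 266 (0.867), the library with the lowest summed B-cell markers, 61.5.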

How the results depend on the processing

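The count of called members was 0 of 8 between genotypes in DMSO, in ibrutinib and for the interaction under every alternative run, and 0 of the 12 share tests passed under any of theirs. These share tests say nothing of stability, since with groups of this size no single test could pass the adjustment over 12 by itself. With the replicate block the counts were also 0, with 1 member in DMSO and 2 in ibrutinib at an unadjusted p under 0.05. Within a treatment this block joined an Eμ-TCL1 and a p53R172H/+ library by number alone, and these are different mice. Libraries without such a partner did not enter the estimate, so these unadjusted p-values do not rest on matched mice. Libraries with the same number in both treatments were checked for pairing by the correlation of their deviations from the group means over 10119 genes. It was 0.752 to 0.838 in 5 of 6 pairs, where each was the highest for its number, and -0.11 for p53R172H/+ replicate 3. The highest of all, 0.899, was between Eμ-TCL1 replicate 2 in DMSO and replicate 1 in ibrutinib. The numbers were therefore not taken to pair libraries. The treatment share tests and the main interaction fit took all libraries as independent, and whether matching libraries came from 1 mouse was not tested. Over all genes, sample quality weights called 803 in DMSO and 28 in ibrutinib, leaving out Eμ-TCL1 replicate 2 called 61 in DMSO, and leaving out Eμ-TCL1 replicate 1 called 24 in ibrutinib.

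Directions of uncalled log2 changes were unstable. In DMSO, sample quality weights turned Ighg1 to 0.36, Ighg2b to 0.55, Ighg2c to 0.66 and Igha to 0.65, and Igha in ibrutinib to 1.17. Scaling to B-cell markers moved the median of all genes to 1.0 in DMSO and 1.57 in ibrutinib. It gave 0.46 for Ighg1 and 0.14 for Iglc2 in DMSO, and 0.065 for Ighg3, 1.58 for Igha, 0.15 for Igkc and 0.48 for Iglc2 in ibrutinib, all of them below that median except Igha. Without the T-cell- or myeloid-rich libraries, Ighg1, Ighg2b, Ighg2c and Igha in DMSO were 0.54, 1.0, 1.13 and 0.65, and Igha in ibrutinib 1.83. Without the T-cell-rich libraries alone, Iglc2 was 0.84 in DMSO and 0.41 in ibrutinib, and Igha in ibrutinib 0.75. In ibrutinib, a pseudocount of 5 gave -0.029 for Ighg1, -0.36 for Ighg2b and -0.32 for Ighg2c, the replicate block gave -0.035 for Ighg2b and -0.30 for Ighg2c, and Igha was 0.076 with a pseudocount of 0.1 and 0.10 with quantile normalization.

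With each library left out, the changes in DMSO ranged from -1.06 to 0.47 for Ighg1, -2.28 to 0.76 for Ighg2b, -2.21 to 0.83 for Ighg2c and -1.76 to 0.14 for Igha. In ibrutinib they ranged from -0.39 to 0.89, -1.11 to 1.98, -0.89 to 1.75 and -0.94 to 1.04. The highest value of each of these came without Eμ-TCL1 replicate 2 in DMSO or replicate 1 in ibrutinib. Ighg3, Igkc and Iglc2 stayed below 0, at -4.26 to -1.37, -1.98 to -0.92 and -1.79 to -0.15 in DMSO and -2.98 to -0.26, -1.99 to -0.27 and -2.14 to -0.016 in ibrutinib. Differences in share between genotypes ranged in DMSO from -0.256 to 0.195 points for Igha and -9.89 to 1.46 for Igkc. In ibrutinib they ranged from -0.646 to 1.68 for Ighm, -0.108 to 0.301 for Igha and -3.55 to 1.14 for Igkc. Between treatments in Eμ-TCL1 they ranged from -0.896 to 1.43 for Ighm, -0.308 to 0.25 for Igha and 0.921 to 12.3 for Igkc. Taken as medians, the genotype difference was 0.109 points for Igha in DMSO and 0.0815 for Igkc in ibrutinib. Without the libraries rich in other cells it was 0.106 for Igha in DMSO and -1.04 for Ighm in ibrutinib. The causes were not tested. Unknown depth, 3 to 5 libraries a group and unequal cell content limit all of these values.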

Other observations

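Constant genes can be set beside the variable genes of the same chain, as ratios of summed values within a library. The ratio of Ighm to all heavy-chain variable genes was 5.19 to 17.3 over the 15 libraries, and that of Igkc to all kappa variable genes was 1.10 to 2.24. For the lambda chain the spread was wider, with 1.28 to 25.0 for Iglc2 over 3 lambda variable genes. The highest lambda ratios were 25.0 in p53R172H/+ replicate 5 and 22.4 in p53R172H/+ replicate 3 in DMSO, and the lowest 1.28 in Eμ-TCL1 replicate 1 in ibrutinib. Iglc2 was 405.6 and 376.3 in the former, where the lambda variable genes summed to 16.2 and 16.8.

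The kappa and lambda constant genes together amounted to 0.197 to 0.585 times the heavy-chain sum. The mean ratio was 0.252 ± 0.022 (SD, n = 3) for Eμ-TCL1 libraries in DMSO, against 0.359 ± 0.10 (SD, n = 5) for p53R172H/+. In ibrutinib it was 0.271 ± 0.051 (SD, n = 3) and 0.406 ± 0.190 (SD, n = 4), and the ranges overlapped in both treatments.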
